A study of Homo sapiens with 4 samples.

Results

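The glycolysis genes examined here were 10 protein-coding genes taken by name, GAPDH, ENO1, PKM, LDHA, ALDOA, PGK1, TPI1, PGAM1, PFKP and SLC2A1, out of 20033 protein-coding genes annotated on the primary chromosomes. RNA polymerase II (Pol II) had been mapped by chromatin immunoprecipitation and sequencing (ChIP-seq) in SK-OV-3, an established human ovarian cancer cell line, to ask how the Pol I initiation factor RRN3 influences Pol II transcription and its termination. One group carried a hairpin against RRN3 (shRRN3) and the control group carried a hairpin against the bacterial gene LacZ (shLacZ), both delivered by lentivirus into stable cells. The sources used here do not state which of the RRN3 hairpins was used for ChIP-seq or whether the cells were clonal. Each hairpin had 1 Pol II library, represented by 1 deposited peak list, and 1 input library, which was not analysed here.

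Glycolysis breaks glucose down to pyruvate in the cytosol and yields ATP without oxygen. Many tumor cells run it at a high rate and reduce the pyruvate to lactate, and most of its enzymes are encoded by strongly transcribed housekeeping genes. On such genes Pol II pauses soon after the start, moves through the body, and slows again past the poly(A) site, where the transcript is cleaved and the polymerase is released.

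Every comparison below sets 1 library against 1 library. There is no replicate spread and no test, and an effect of the RRN3 hairpin cannot be told apart from a difference in depth or enrichment between the libraries. The peak lists hold no read counts, so sequencing depth was not used here. The shLacZ list had 3920 peaks on primary chromosomes and the shRRN3 list had 14322, which was 3.65 times as many and 4.80 times as many bases. A gene without a peak had none that passed the caller's threshold, which does not show that Pol II was absent.

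The sequences just upstream of 3 starts are shown first, to set a gene with a start peak in both lists beside one with a peak in shRRN3 alone and one without. They are the 250 bases before the first base of the canonical transcript, read 5′ to 3′ on the strand of the gene from GRCh38. ALDOA had a start peak in both lists, ENO1 in shRRN3 alone, and LDHA in neither. Capitals mark the letters of GGGCGG (the GC box), CACGTG (the E-box), or the hypoxia response core written ACGTG or GCGTG, on either strand.

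ALDOA, chr16:30065510-30065759, plus strand: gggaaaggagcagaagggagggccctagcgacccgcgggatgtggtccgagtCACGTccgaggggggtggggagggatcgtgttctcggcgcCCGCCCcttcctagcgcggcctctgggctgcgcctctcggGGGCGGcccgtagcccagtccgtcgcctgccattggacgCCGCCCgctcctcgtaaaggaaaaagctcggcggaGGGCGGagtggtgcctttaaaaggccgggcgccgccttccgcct
ENO1, chr1:8878687-8878936, minus strand: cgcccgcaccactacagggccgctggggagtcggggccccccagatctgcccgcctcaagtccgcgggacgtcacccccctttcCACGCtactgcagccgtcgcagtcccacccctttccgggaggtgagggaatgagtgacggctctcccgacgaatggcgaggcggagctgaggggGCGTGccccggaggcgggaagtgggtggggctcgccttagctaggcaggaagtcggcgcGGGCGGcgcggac
LDHA, chr11:18394313-18394562, plus strand: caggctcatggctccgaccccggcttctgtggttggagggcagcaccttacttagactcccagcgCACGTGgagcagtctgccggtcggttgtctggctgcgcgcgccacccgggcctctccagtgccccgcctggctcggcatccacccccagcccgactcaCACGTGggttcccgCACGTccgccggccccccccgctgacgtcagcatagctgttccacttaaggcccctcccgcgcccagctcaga

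The 3 windows differed in what they held. ALDOA had 4 GGGCGG and 1 ACGTG, ENO1 had 1 GGGCGG and 2 GCGTG, and LDHA had 2 CACGTG, each of which also holds ACGTG on both strands, and 1 more ACGTG outside them. Over all 10 genes, GGGCGG was in 8 windows and in 59.0% of the windows of the 20033 protein-coding genes. ACGTG was in 5 (20.5% of all), GCGTG in 4 (40.3%), either of these in 6 (51.3%), TATAAA, the TATA box, in 2 (9.34%) and CACGTG in 1 (7.87%). A match is a description of the letters in this window and shows no binding. The start windows were GC-rich, with 55.2% to 72.6% GC over 1 kb either side of the start and a median of 64.2%, against a median of 56.0% over all protein-coding genes. For 7 of the 10 genes the 250 bases were identical to an entry of the RefSeq promoter table for GRCh38.p14.

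Of the 10 genes, 9 had at least 1 Pol II peak in shRRN3 within the gene or the 5 kb on either side, and 5 had one in shLacZ. The shLacZ list had 7 peaks there and the shRRN3 list had 42, which was 6 times as many. Covered bases came to 3078 in shLacZ and 28214 in shRRN3, a ratio of 9.17 against the ratio of 4.80 over the lists as a whole. The largest parts of the shRRN3 bases were at ENO1 (7865 bp) and PKM (6917 bp), so the pooled ratio is not a value for each gene. All 7 shLacZ peaks lay entirely inside shRRN3 peaks, whereas 34 of the 42 shRRN3 peaks had no shLacZ counterpart. The 8 with one had a median width of 1010 bp, and the 34 without one had 528 bp. The farthest shRRN3 peak past ALDOA was among the 8, but its shLacZ counterpart lay outside the 5 kb. The shares over all peaks were not computed and the shRRN3 list was longer, so these counts are not read as a trait of the 10 genes. Covered bases were more in shRRN3 at 9 of the 10 genes, against 38.0% of all protein-coding genes, and no gene of the 10 had more in shLacZ. A further 59.6% of all protein-coding genes had no peak in either list, so more covered bases in shLacZ were rare over all genes too.

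**Figure D1:**
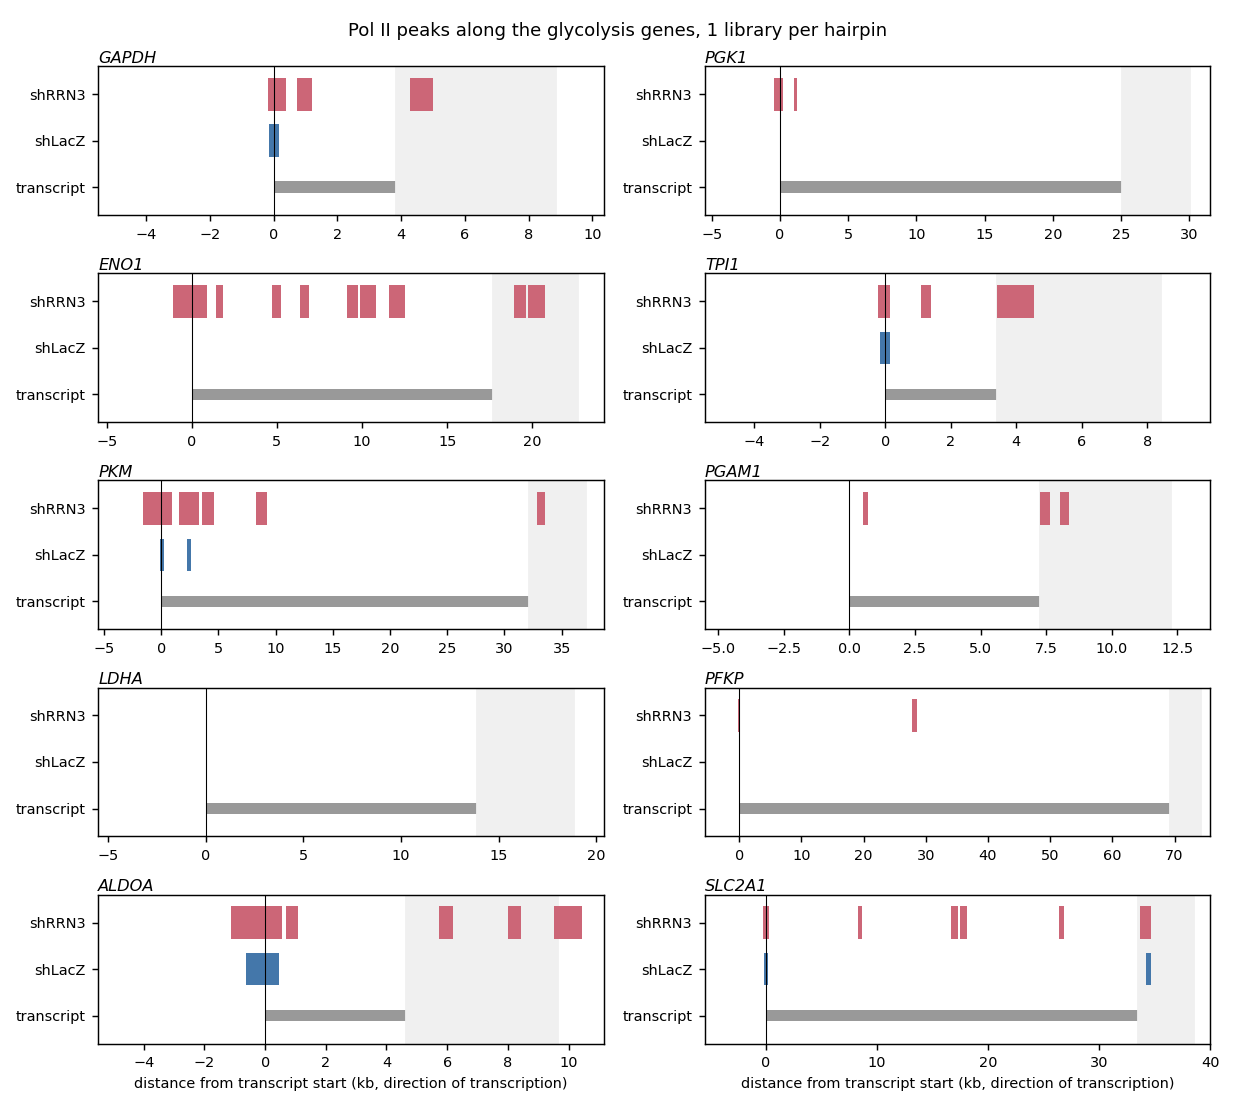
Peaks of shLacZ (blue) and shRRN3 (red) along each gene, as distance in kb from the start of the canonical transcript (grey bar), with the 5 kb past the end shaded. Peaks of shLacZ sit at starts except for a second one in PKM and one past the end of SLC2A1, shRRN3 peaks also lie in bodies and past the ends of 7 genes, LDHA is empty in both, and a weak peak far upstream of the PGK1 start is not drawn.

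A start was taken as the 1 kb on either side of the first base of the canonical transcript, and a peak was counted there when it shared at least 1 bp. A start peak was found at 5 of the 10 genes in shLacZ, against 8.30% of all protein-coding genes, and at 9 of the 10 in shRRN3, against 26.0%. The 5 genes of shLacZ, GAPDH, PKM, ALDOA, TPI1 and SLC2A1, all had one in shRRN3 too, as did 86.2% of all protein-coding genes with a start peak in shLacZ. The 4 with a start peak in shRRN3 alone were ENO1, PGK1, PGAM1 and PFKP. With only the best 3920 shRRN3 peaks by score, to equal the length of the shLacZ list, 6 of the 10 genes had a start peak, against 10.8% of all protein-coding genes.

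**Figure D2:**
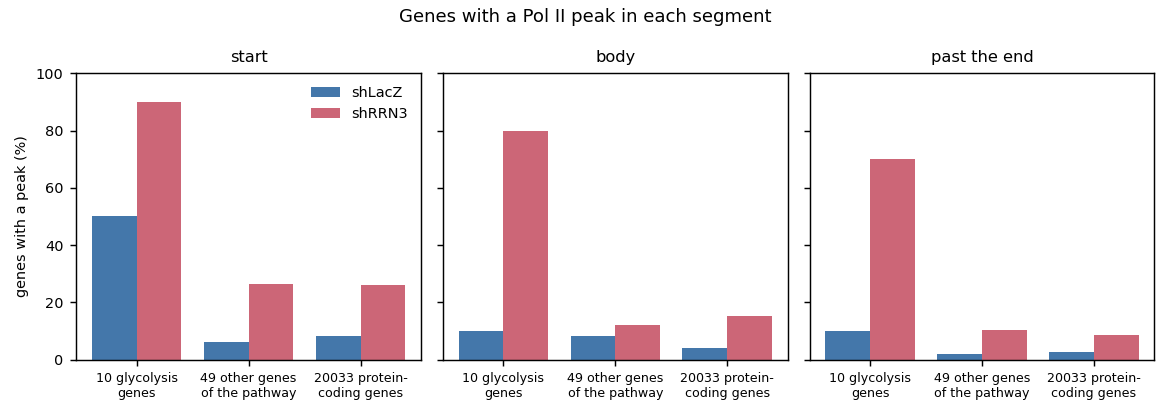
Percent of genes with at least 1 peak at the start, in the body and in the 5 kb past the end, for the 10 glycolysis genes, 49 other genes of the pathway and 20033 protein-coding genes, in shLacZ (blue) and shRRN3 (red). In shRRN3 the 10 genes stand at 9, 8 and 7 of 10, while the other genes of the pathway stand at 26.5%, 12.2% and 10.2%, and all protein-coding genes at 26.0%, 15.1% and 8.69%.

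Glucose enters the cell through SLC2A1 (GLUT1), a membrane transporter. Its gene (chr1:42925353-42958868, minus strand) had a start peak of 313 bp in shLacZ, which crossed the start and ended 131 bp past it. In shRRN3 the start peak was 474 bp wide and ended 238 bp past it. Both also held the start of the divergent noncoding gene SLC2A1-DT. By score it ranked 2694 of 3920 in shLacZ and 11832 of 14322 in shRRN3, so 68.7% and 82.6% of the respective list scored as high or higher. SLC2A1 was the only one of the 5 genes with a start peak in both lists whose peak stood lower within the shRRN3 list by this share. The share depends on list length, and the shRRN3 list was 3.65 times as long. By rank, GAPDH (553 and 682) and ALDOA (334 and 348) also stood lower in shRRN3. The shRRN3 list added 4 peaks in its introns, of which 1 lay in intron 1 and 3 in intron 2, with ranks from 7523 to 11225. These 4 and the start peak all fell outside the best 3920 peaks of shRRN3. The excess of covered bases in shRRN3 at SLC2A1 was 2838 bp with all peaks, 1290 bp with only peaks at or above the median shLacZ score, and 324 bp with only the best 3920.

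PFKP encodes the platelet type of phosphofructokinase, which catalyses the committed step of the pathway. It is the longest of the 10 transcripts at 69255 bp (chr10:3067548-3136802, plus strand). The shLacZ list had no peak within 707591 bp of its start. The shRRN3 list had a start peak of 382 bp at rank 8399, and a second peak of 749 bp at rank 1714 in intron 2, beginning 27768 bp past the start. The intronic peak thus scored above the start peak in the same list.

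ALDOA encodes aldolase A, which splits fructose 1,6-bisphosphate into triose phosphates, and TPI1 encodes triose-phosphate isomerase, which interconverts those trioses. ALDOA (chr16:30065760-30070414, plus strand) had the widest and highest-scoring shLacZ peak of the 10 genes, 1081 bp at rank 334. In shRRN3 its start peak was 1686 bp at rank 348. The peak therefore held nearly the same place from the top of both lists, while its share of the list at or above it went from 8.52% to 2.43%. TPI1 (chr12:6867531-6870948, plus strand) had start peaks of 307 bp at rank 2735 in shLacZ and 361 bp at rank 2556 in shRRN3. Their midpoints lay 12 bp apart, the closest of the 5 genes with a start peak in both lists. An annotated readthrough gene overlaps all of ALDOA, and its signal cannot be told apart from that of ALDOA.

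GAPDH oxidises glyceraldehyde 3-phosphate with the help of NAD. Its gene (chr12:6534517-6538371, plus strand) had 1 shLacZ peak of 305 bp at rank 553, over exon 1. The shRRN3 peak at the start was 570 bp at rank 682 and extended to 380 bp past the start. A second shRRN3 peak of 479 bp at rank 8486 lay in intron 2. PGK1, phosphoglycerate kinase, makes the first ATP of the lower pathway. PGK1 (chrX:78104248-78129295, plus strand) had no shLacZ peak within 1850811 bp of its start, a distance that 8.52% of protein-coding genes reached or exceeded. In shRRN3 it had a start peak of 682 bp at rank 1596, and a narrow peak of 202 bp at rank 8976 in intron 1. A further peak of 167 bp at rank 12486 fell within the annotated bounds of PGK1, whose longest form begins far upstream, but outside the canonical transcript and the 5 kb around it.

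PGAM1, phosphoglycerate mutase, moves the phosphate of 3-phosphoglycerate to the second carbon. Its gene (chr10:97426191-97433444, plus strand) had no shLacZ peak within 71956 bp of its start. Its shRRN3 peak nearest the start was 180 bp wide, lay 525 to 704 bp past the start in intron 1, and at rank 12893 with a score of 52.8 was near the bottom of the list. PGAM1 thus had a start peak by the window alone, and no peak covered its first base.

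ENO1 encodes enolase 1, which makes phosphoenolpyruvate, and PKM encodes the muscle pyruvate kinase, which turns it into pyruvate. These were the genes with the most covered bases in shRRN3. ENO1 (chr1:8861000-8878686, minus strand) had no shLacZ peak, the nearest lying 60880 bp from its start. In shRRN3 it had 10 peaks covering 7865 bp, which 0.195% of all protein-coding genes equalled or exceeded. Its start peak of 1466 bp ranked 231, the highest-ranked peak of the 10 genes in shRRN3. PKM (chr15:72199029-72231190, minus strand) had 2 shLacZ peaks, one of 344 bp at the start at rank 941 and one of 292 bp in intron 1 at rank 2044. In shRRN3 it had 6 peaks covering 6917 bp. Its start peak was then 2507 bp at rank 291 and the intronic one 1190 bp at rank 507, so both stood nearer the top of the list. The start peak of ENO1 also held the start of the antisense gene ENO1-AS1, and ChIP-seq does not tell the strands apart.

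LDHA, the A subunit of lactate dehydrogenase, reduces pyruvate to lactate. Its gene (chr11:18394563-18408425, plus strand) was free of peaks in both lists out to 5 kb on either side, as were 59.6% of all protein-coding genes. The nearest peak of shLacZ lay 132059 bp from its start and that of shRRN3 131936 bp. Of all protein-coding genes, 62.7% were as far or farther from a shLacZ peak and 29.5% from a shRRN3 peak. The 2 E-boxes printed above therefore lie in a promoter without a listed peak.

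**Figure D3:**
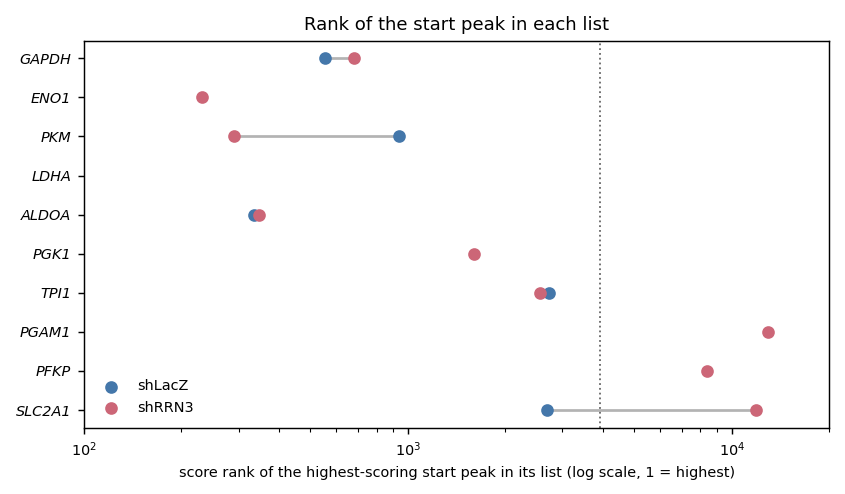
Rank by score (log scale, 1 is the highest) of the highest-scoring start peak of each gene in its own list, with shLacZ in blue, shRRN3 in red, a grey line joining both and a dotted line at 3920, the length of the shLacZ list. ALDOA and TPI1 hold similar ranks in both lists, PKM stands at 941 and 291, SLC2A1 at 2694 and 11832, and LDHA has no point.

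The spread of peaks beyond the start was examined next. The body was taken from 1 kb past the start to the end of the canonical transcript. A body peak was found at 1 of the 10 genes in shLacZ (PKM), against 4.19% of all protein-coding genes, and at 8 of the 10 in shRRN3, against 15.1%. LDHA and PGAM1 had none. At GAPDH and ALDOA the body peak was also counted at the start, and only its edge, 205 and 91 bases, lay in the body. Placed by midpoint, body peaks in shRRN3 were at 6 of the 10 genes, and the share of all genes under that placement is not given here. Peaks covered 0.145% of the members' body bases in shLacZ and 5.70% in shRRN3, against 0.0287% and 0.201% over all protein-coding genes. By gene, the covered share in shRRN3 was highest for ENO1 at 24.8%, followed by TPI1 at 12.9% and PKM at 11.8%. It was 7.18% for GAPDH and 6.27% for SLC2A1, and lay between 0.840% and 2.49% for PGK1, PFKP and ALDOA. In the reduced shRRN3 list, body peaks were left at 3 genes, against 4.75% of all protein-coding genes.

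The bodies of the 10 genes held 178965 intron bases and 21738 exon bases. In shRRN3, 10953 of the covered body bases lay in introns and 480 in exons. Of all 42 shRRN3 peaks, those at starts included, 22 had their midpoint in an intron, 1 in an exon, 7 upstream of the start and 12 past the end. Within the bodies, shRRN3 peaks covered 2.21% of exon bases and 6.12% of intron bases of the 10 genes. Over all protein-coding genes the order was the opposite, with 0.475% of exon bases and 0.185% of intron bases covered. Most of the covered body bases of the 10 genes were at ENO1 (4144), PKM (3689) and SLC2A1 (2040), so the pooled shares are not a trait of each gene. The 10 genes have 101 annotated pseudogene copies that bear their names, 65 of them of GAPDH, and how reads shared between copies were handled is not given in the sources used here. The part of shared reads in the low exon coverage was not tested. Of the 101 copies, 1 carried peaks in shLacZ (PGAM1P5) and 2 in shRRN3 (PGAM1P5 and TPI1P2). The shRRN3 peaks at PGAM1P5 were spread from chr12:95605101 to chr12:95658270. The share over all pseudogenes is not given here, so these counts are not read as a result.

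**Figure D4:**
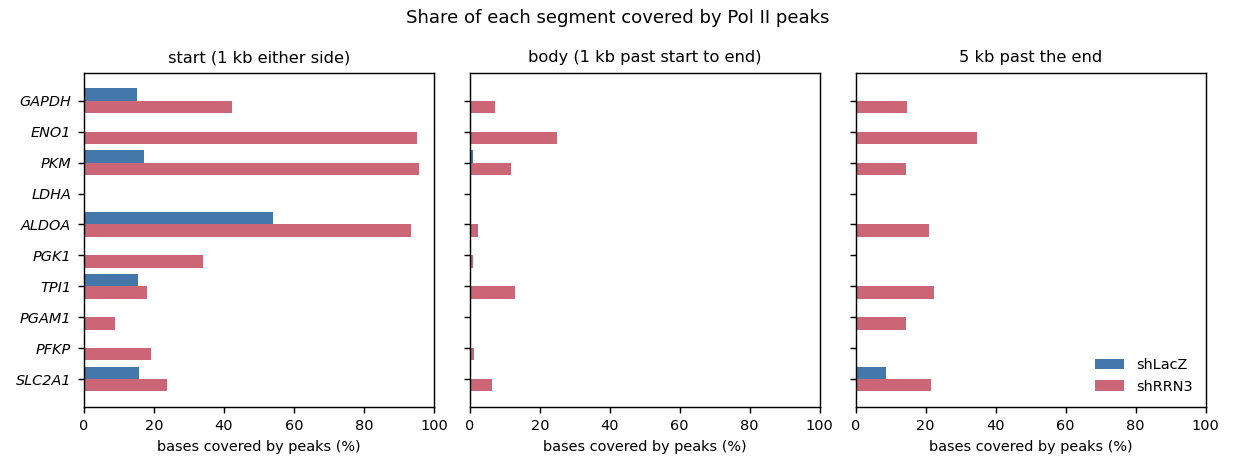
Percent of the bases of each segment covered by peaks, for each of the 10 genes in shLacZ (blue) and shRRN3 (red). In shRRN3 the starts of ENO1, PKM and ALDOA are covered at 95.2%, 95.6% and 93.4%, ENO1 has the highest cover of the body and of the 5 kb past the end, and LDHA has no bar.

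The region past the end was compared because the study concerned the termination of Pol II transcription. In its metagene analysis, the study reported lower Pol II coverage downstream of genes after RRN3 knockdown, as well as in exons and intergenic regions. Counts of peaks and their bases are an unlike measure, so the values below are not set against that result. A peak in the 5 kb past the end was found at 1 of the 10 genes in shLacZ, against 2.62% of all protein-coding genes, and at 7 of the 10 in shRRN3, against 8.69%. The 7 were GAPDH, ENO1, PKM, ALDOA, TPI1, PGAM1 and SLC2A1. All 7 also had a start peak in shRRN3, so 7 of the 9 genes with a start peak had one past the end. Among all protein-coding genes with a start peak, this share was 18.4% in shRRN3. In shLacZ it was 1 of 5, against 8.66%. In the reduced shRRN3 list, a peak past the end was found at 6 of the 10 genes, against 3.52% of all protein-coding genes, and at 5 of the 6 with a start peak there, against 13.7%.

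The peaks past the end were not evenly spread around it. In shRRN3 the last 2 kb before the end had 22 covered bases over the 10 genes, all at TPI1, or 0.110% of the window. The first 2 kb past the end had 5553, or 27.8%. From 2 to 5 kb past the end the value was 5.30%. Over all protein-coding genes the same 3 windows were covered at 0.721%, 1.81% and 1.19%. By base share the 10 genes were above all genes just past the end, where 7 of the 10 had covered bases. The 5553 bases include peaks that overlap other annotated genes, with 1122 bases at TPI1, 1073 at SLC2A1, 728 at GAPDH and 721 at PKM. Bases over other genes were not removed from these windows, at the 10 genes or over all genes. Just before the end, 1 of the 10 had covered bases, and 536 of the 20033 protein-coding genes had them. The lower base share of the 10 genes there rests on too few bases to be read as a result. In shLacZ the values of the 10 genes were 0%, 2.18% and 0%, and SLC2A1 alone gave the second one.

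**Figure D5:**
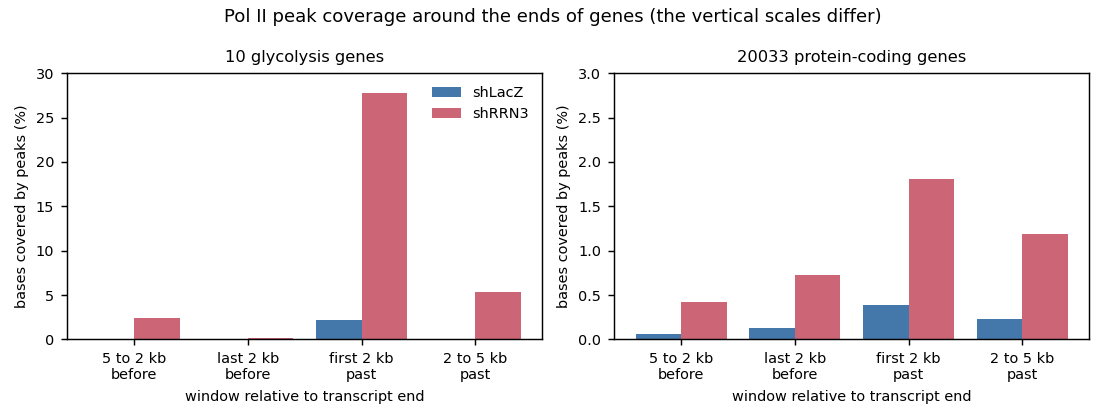
Percent of bases covered by peaks in 4 windows around the transcript end, for the 10 glycolysis genes (left, scale to 30%) and all protein-coding genes (right, scale to 3%), in shLacZ (blue) and shRRN3 (red). In the 10 genes shRRN3 coverage is 0.110% in the last 2 kb before the end and 27.8% in the first 2 kb past it, while over all genes it is 0.721% and 1.81%. Bases over other annotated genes are included.

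Ends were those of the canonical transcripts, and 5 of the 10 genes had AATAAA, the usual poly(A) signal, within the last 40 bases (62.2% of protein-coding genes). All 5 had shRRN3 peaks past the end. The last 30 bases of 4 of them are given because they fix the position from which the distances below are counted, with the signal in capitals.

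GAPDH, chr12:6538342-6538371, plus strand: accatcAATAAAgtaccctgtgctcaacca
ENO1, chr1:8861000-8861029, minus strand: AATAAAaagcctcagtgacccatgagaata
ALDOA, chr16:30070385-30070414, plus strand: actgccaAATAAAcagctatttaaggggga
PGAM1, chr10:97433415-97433444, plus strand: agtatAATAAAggagtgatgtgcaatagct

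PGK1 and PFKP had the variant ATTAAA instead, a form found at 17.2% of protein-coding genes, and neither had a peak past the end. LDHA, TPI1 and SLC2A1 had neither form in these 40 bases. At 76.0% of protein-coding genes either form was present there. The 7 genes with a peak past the end thus included 2 without either signal at the annotated end. Peaks past the end were not counted by signal over all protein-coding genes, so no link between signal and peaks is drawn.

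Of the 12 shRRN3 peaks past an end, 9 had their midpoint within 2 kb of it. At GAPDH a peak of 728 bp (chr12:6538805-6539532) at rank 3406 was centred 797 bp past the end. At ENO1, peaks of 709 bp and 1021 bp were centred 1581 bp and 2562 bp past the end, at ranks 2443 and 371. The farther one (chr1:8857928-8858948) scored highest of all 12. At PGAM1, peaks of 372 bp and 354 bp were centred 192 bp and 953 bp past the end. Both of these outranked the peak near the PGAM1 start, at ranks 5280 and 5941 against 12893. At TPI1, peaks of 455 bp and 689 bp were centred 206 bp and 779 bp past the end, at ranks 6114 and 710, and the second outranked the TPI1 start peak at 2556.

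Several of these peaks lay over other genes. The GAPDH peak overlapped the end of IFFO1 and both TPI1 peaks overlapped SPSB2, genes that run towards them on the opposite strand. The PKM peak (chr15:72197645-72198365), centred 1024 bp past the end, spanned the start of GRAMD2A. At ALDOA, peaks of 474 bp and 421 bp were centred 1311 bp and 3553 bp past the end, in no annotated gene, while another of 941 bp spanned the start of PPP4C and reached into the 5 kb window only by its edge. At SLC2A1 the shLacZ peak of 436 bp at rank 1870 and the shRRN3 peak of 1073 bp at rank 1224 spanned the start of an antisense lncRNA gene, ENSG00000288955. This was the only peak past an end in shLacZ, so no shLacZ peak past an end was free of another annotated start. Leaving out bases within other protein-coding genes or 1 kb around their starts removed the window of TPI1. Of the other 9 genes, 5 then had a peak past the end in shRRN3, against 4.81% of 16128 protein-coding genes with any such bases. In shLacZ the count was 1 of 9, against 1.26%.

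The middle 200 bases of 3 shRRN3 peaks that lay past an end and overlapped no annotated gene of any type are given on the strand of the gene, to show the sequence under the signal.

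ENO1, chr1:8858338-8858537, minus strand: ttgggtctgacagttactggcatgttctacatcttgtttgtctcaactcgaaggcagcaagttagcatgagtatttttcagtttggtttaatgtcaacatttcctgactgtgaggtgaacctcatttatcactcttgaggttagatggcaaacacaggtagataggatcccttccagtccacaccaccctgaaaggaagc
ALDOA, chr16:30071625-30071824, plus strand: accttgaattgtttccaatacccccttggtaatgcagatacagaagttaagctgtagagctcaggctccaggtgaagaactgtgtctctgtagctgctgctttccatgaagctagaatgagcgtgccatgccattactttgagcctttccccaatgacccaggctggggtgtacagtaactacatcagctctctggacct
PGAM1, chr10:97433536-97433735, plus strand: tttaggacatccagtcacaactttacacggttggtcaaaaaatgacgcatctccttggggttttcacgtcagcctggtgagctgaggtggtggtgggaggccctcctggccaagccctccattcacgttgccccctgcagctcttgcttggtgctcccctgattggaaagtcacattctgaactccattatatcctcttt

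None of the 3 holds GGGAGGG, part of a G-rich element known to slow Pol II, on either strand, so all letters are in lower case. Their GC shares were 43.5%, 48.5% and 52.0%, near the median of 48.0% over the middle 200 bases of all shRRN3 peaks. GGGAGGG was found in 2 of the 12 shRRN3 peaks past an end (1 at TPI1 and 1 at ALDOA) and in 11.1% of all shRRN3 peaks. The TPI1 match was in a peak that overlaps SPSB2. The ALDOA match was in the peak that spans the start of PPP4C, and it lay beyond the 5 kb window.

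The rest of the pathway was described by 49 further genes in 3 lists, which held other glycolytic enzymes and their tissue forms, transporters of glucose and lactate, and regulators with the entry of pyruvate into mitochondria. A start peak was found at 3 of the 49 in shLacZ and at 13 in shRRN3, which is 6.12% and 26.5% against 8.30% and 26.0% of all protein-coding genes. The 3 lists were not alike in shRRN3, where a start peak was found at 4 of 23 other enzymes (17.4%), 2 of 10 transporters (20.0%) and 7 of 16 regulators (43.8%). In shLacZ each list had 1 gene with a start peak. Body peaks were found at 4 of the 49 in shLacZ and 6 in shRRN3, which is 8.16% and 12.2% against 4.19% and 15.1% of all protein-coding genes. Peaks past the end were found at 1 and 5 of the 49, which is 2.04% and 10.2% against 2.62% and 8.69%. Covered bases were more in shRRN3 at 23 of the 49, against 38.0% of all protein-coding genes, and in shLacZ at 0. No peak in either list was found at 26 of the 49, against 59.6%. More covered bases in shLacZ were thus rare over all protein-coding genes too.

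The 3 with a start peak in shLacZ were HKDC1, a hexokinase-like gene, BSG, a partner of lactate transporters, and PFKFB3, which makes an activator of phosphofructokinase. All 3 also had one in shRRN3. The start of PFKFB3 was covered over 404 bp in shLacZ and 338 bp in shRRN3, and 14.7% and 31.0% of the respective list scored as high as its start peak or higher. For HKDC1 these shares were 85.0% and 38.2%, with 325 bp and 431 bp covered at the start. For BSG they were 61.6% and 28.3%, with 408 bp and 704 bp. LDHB, the other main lactate dehydrogenase subunit, had a start peak in shRRN3 alone, of 391 bp at rank 6656.

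The most covered bases among the 49 in shRRN3 were found at HIF1A, the oxygen-regulated factor that activates many glycolysis genes. HIF1A (chr14:61695513-61748258, plus strand) had 4 peaks covering 1487 bp in shLacZ and 33 peaks covering 16028 bp in shRRN3. Of the shRRN3 bases, 1618 were at the start, 9949 in the body and 4460 past the end. Long noncoding genes on both strands overlap HIF1A, so its peaks cannot be assigned to HIF1A alone. The next were PFKFB2 with 1914 bp, none of it at its canonical start, and SLC16A3, the lactate exporter MCT4, with 791 bp at the start and 1056 bp past the end and no shLacZ peak.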

How the data were processed

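Pol II ChIP-seq of SK-OV-3 cells was represented by 2 peak lists. Peaks were called separately in each library by the authors with a program whose name in the files is MACS. Its version, the aligner, the threshold, the handling of duplicate reads and the use of the input are not given in the sources used here. The submitters' processing notes name hg38, and the sequence names carry the accession versions of GRCh38. The deposited score is not defined in the files, so it was assumed to be the caller's −log10 p-value multiplied by 10, and it served only for ranks within a list, where rank 1 is the highest and ties share the better rank.

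Starts, ends and exons came from the canonical transcripts of GENCODE release 44, and sequences from GRCh38. Peak coordinates were read as BED and are given 1-based. Covered bases are the union of peaks within a segment. No test was possible with 1 library per hairpin. The 10 genes and the other lists were chosen with earlier results of these data known. The windows around ends, the split into exons and introns, the distances, the poly(A) signals and GGGAGGG were added after the peaks were seen. All 10 genes were named, with the 3 genes of the other lists that had most covered bases in shRRN3 and those with a shLacZ start peak. LDHB was named after its values were seen. Some sequences are not reported here. Coverage code was tested on simulated peaks. Software was Python 3.11.15, numpy 2.4.6, pandas 2.3.3 and matplotlib 3.10.9.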

Additional observations from a re-analysis of the deposited data

How the results depend on the processing

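Alternatives were a shRRN3 list reduced to 3920 peaks, a score at or above the shLacZ median, other windows, outer gene bounds, placement by midpoint, and the removal of other coding genes. Of 102 values for counts of genes and covered bases, 88 stayed within 1.5 times and 14 did not. Some of the 88 could not move, so their number is not a measure of stability. The reduced shRRN3 list cannot change shLacZ values, and the flank does not enter values at starts or in bodies. The start window does not enter values past the end. In shRRN3, the reduced list left 3 genes with a body peak and 5967 body bases, a start window of 2 kb left 5 genes with a body peak, a start window of 0.5 kb left 5472 bases at starts, and removal of other coding genes left 4580 bases past ends. In shLacZ, the stricter score left 3 genes with a start peak and 0 genes and 0 bases in bodies. Outer bounds gave 2 genes and 1342 bases in bodies and 1300 bases at starts, and removal of other coding genes gave 1269 bases at starts, since ALDOA drops out with its readthrough gene. A flank of 10 kb gave 2 genes and 817 bases past ends. The stricter score and the reduced list drop peaks by construction, and the other settings move the bounds of the segments. Of 80 differences in covered bases per gene, shRRN3 minus shLacZ, 71 were above 0, 9 were 0 (LDHA under each, PGAM1 in the reduced list) and none was below. Neither the start window nor the outer bounds enter these differences, so those settings repeat the main value. No paired analysis was possible because each hairpin had 1 Pol II library. With few shLacZ peaks, and depth not used here, a gene without a shLacZ peak cannot be called free of Pol II.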
